A study of Mus musculus with 6 samples.

Results

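The granins and the enzymes of prohormone processing were followed in pancreatic islets of NZO and B6-ob/ob mice. The set holds 10 genes, chosen by name: Pcsk1, Pcsk2, Cpe, Pcsk1n, Pam, Chga, Chgb, Scg2, Scg3 and Scg5. All non-control probes whose gene name in the scanner files equals 1 of these symbols were taken, which gave 18 of 41174 probes and 10 of 27827 gene names. Of the 18 probes, 17 passed the scanner software's test for signal well above background in 3 or more of the 6 arrays and were tested, and the remaining probe, of Chgb, was not above background on any array. Islet RNA was hybridised to 1-colour oligonucleotide arrays, which read a transcript's abundance from the brightness of Cy3 dye at its probe. The NZO group is of the New Zealand Obese strain NZO/HiBomDife, given as diabetes-prone in the labels. The B6-ob/ob group is C57BL/6.V-Lepob/ob, given as diabetes-resistant, and its mice lack functional leptin. Animals of both strains were male, were fed a carbohydrate-free diet rich in fat up to 18 weeks of age and gave their islets 48 h after carbohydrate was introduced. Islets from before the switch were not analysed here, and all values describe the strains at a single time. Replicates are numbered 10, 11 and 12 for NZO, and 4, 5 and 6 for B6-ob/ob. Whether each sample came from 1 animal or from pooled animals is not in the labels. P-values therefore measure only how these samples scatter, and that scatter may be technical.

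Peptide hormones are made as inactive precursors that are cut and trimmed inside the secretory granule. The convertases PC1/3 (Pcsk1) and PC2 (Pcsk2) cut at pairs of basic residues, carboxypeptidase E (Cpe) removes the exposed basic residues, and peptidylglycine alpha-amidating monooxygenase (Pam) amidates the ends of peptides that carry a terminal glycine. The protein 7B2 (Scg5) binds pro-PC2 and is needed for its maturation, and proSAAS (Pcsk1n) inhibits PC1/3. The granins Chga, Chgb, Scg2 and Scg3 are acidic proteins that condense with the hormone cargo as granules form, and in islets these genes serve the maturation of insulin, glucagon and somatostatin.

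Of the 10 genes, Scg5 showed the largest difference and was higher in NZO islets, 2.53-fold. Probes of Scg2, Pcsk1 and Pcsk2 were lower in NZO islets by 1.39-fold to 1.59-fold, close to the threshold of the test. Pcsk1 and Pcsk2 each have a second probe that did not pass it. Cpe, Pcsk1n, Pam, Chga, Chgb and Scg3 did not pass the test at any probe. With limma over 24627 kept probes and a threshold of 0.05 on the adjusted p, 4 of 17 member probes were called (23.5%), beside 21.8% of all kept probes. Of the 17, 1 was higher, beside 11.5% of all kept probes, and 3 were lower, beside 10.3%. The share of member probes called was thus near that of all probes. The median difference over the 17 probes was 0.02 on the log2 scale, beside -0.06 over all kept probes. Signed values are log2 differences, NZO minus B6-ob/ob. A level is the log2 of the processed intensity minus the array's 75th percentile, so levels of different probes are not set against each other.

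The probes behind these results are shown because each one reads a single short stretch of its transcript, and probes of the same gene did not always give the same value. They are written 5′ to 3′ in the sense of the transcript as the files hold them, with positions on mm9. The probes of Pcsk1 (chr13:75236748-75243404, plus strand, across an intron), Scg2 (chr1:79432019-79432078, minus strand) and Pam (chr1:99792268-99792587, minus strand, across an intron, and chr1:99718412-99718471) are given whole, at 60 bases each. For Scg5 (chr2:113616611-113616670, minus strand), Pcsk2 (chr2:143639649-143639708 and chr2:143641545-143641604, plus strand) and the other Pcsk1 probe (chr13:75269727-75269786) the first 30 bases are given.
Scg5, probe A_51_P221223: ccaagtctgtaaaacgctagcatttgattt
Scg2, probe A_51_P327970: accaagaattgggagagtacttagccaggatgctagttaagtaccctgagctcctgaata
Pcsk1, probe A_52_P164524: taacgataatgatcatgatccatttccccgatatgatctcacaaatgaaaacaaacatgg
Pcsk1, probe A_52_P500979: tgctgcaagctctcatggacatcctaaatg
Pcsk2, probe A_51_P134045: gattcaggtgaaatgtctgttcatctcttc
Pcsk2, probe A_51_P229613: gacacaagcaatcccagcctggtctcaagc
Pam, probe A_51_P194070: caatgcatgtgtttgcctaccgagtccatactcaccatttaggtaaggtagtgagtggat
Pam, probe A_52_P546610: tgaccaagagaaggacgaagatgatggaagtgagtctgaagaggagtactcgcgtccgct

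Promoter sequence was read for the members from RefSeq windows on GRCm38.p6, which begin 250 bases before each gene's annotated start, and 9 of 10 members matched a window. The windows were searched on both strands for TGACGTCA, the palindromic cyclic AMP response element, and for its part TGACGT, which every match of the longer motif also holds. TGACGTCA was found in 3 of 9 members (33.3%), against 508 of 32851 windows overall (1.55%). It begins 68 bases before the start of Scg2, 72 before that of Chgb and 78 before that of Pcsk1. TGACGT on either strand was found in 5 of 9 members (55.6%), against 2125 of all windows (6.47%), and the further members were Scg5, 175 bases before the start, and Chga, 44 bases before it. In both comparisons members were counted by gene and the background by window (32851 windows of 27025 genes). The shares are thus in unlike units. A match describes letters in a window and was not tested for binding. Among the 5 genes that hold these letters, Scg5 was higher, Scg2 and 1 probe of Pcsk1 were lower, and Chga and Chgb did not pass the test. Capitals mark the motifs in the bases just before each start, at chr2:113829092-113829341 (minus strand) for Scg5, chr1:79440027-79440146 (minus strand) for Scg2 and chr13:75089737-75089856 (plus strand) for Pcsk1. Those of Chgb lie at chr2:132781522-132781641 and those of Chga at chr12:102554821-102554940, both on the plus strand.
Scg5 promoter: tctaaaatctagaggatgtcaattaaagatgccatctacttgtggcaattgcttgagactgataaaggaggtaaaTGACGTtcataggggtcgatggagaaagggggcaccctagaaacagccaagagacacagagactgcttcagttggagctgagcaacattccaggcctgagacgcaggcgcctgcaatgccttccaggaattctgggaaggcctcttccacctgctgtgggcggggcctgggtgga
Scg2 promoter: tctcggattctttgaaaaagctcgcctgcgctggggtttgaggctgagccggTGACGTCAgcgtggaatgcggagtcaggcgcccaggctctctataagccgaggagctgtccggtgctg
Pcsk1 promoter: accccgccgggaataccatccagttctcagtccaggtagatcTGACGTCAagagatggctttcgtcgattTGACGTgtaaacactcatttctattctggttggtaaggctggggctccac
Chgb promoter: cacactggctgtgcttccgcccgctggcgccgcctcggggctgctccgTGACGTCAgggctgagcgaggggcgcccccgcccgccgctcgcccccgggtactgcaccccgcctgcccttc
Chga promoter: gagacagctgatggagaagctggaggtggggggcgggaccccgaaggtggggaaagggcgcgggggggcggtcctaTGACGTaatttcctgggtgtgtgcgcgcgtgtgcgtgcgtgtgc

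Ifi202b and H2-Ea, whose transcripts C57BL/6 mice lack through known deletions, were well above background on 3 NZO and 0 B6-ob/ob arrays. A table of processed values deposited with the series goes the other way: each of its columns follows an array of the strain opposite to its label, and 12 of the 13 member probes tested in it have the sign opposite to that given here (the exception is Chga). Each array had 23617 to 24710 probes above background, and precision is limited by having 3 arrays a strain. Of 21 endocrine cell markers measured, 0 were higher and 3 were lower in NZO islets (Isl1, Nkx6-1 and Kcnj11). The summed linear level of the 21, in units of the array's 75th percentile, was 3670 to 4212 on NZO arrays and 3622 to 4201 on B6-ob/ob arrays. This sum mostly reflects the brightest genes, such as Ins1 and Ins2. The mean log2 level of the 21 was 3.92 to 4.04 on NZO arrays and 3.90 to 4.32 on B6-ob/ob arrays. Of these 21 markers, 12 also stand in the pathway lists below. Markers of other cells moved with the strain: 17 of 19 acinar markers were higher in NZO islets (summed level 2323 to 3322, against 323 to 1053 in B6-ob/ob islets), as were 12 of 13 stellate cell and fibroblast markers (71.6 to 79.9, against 18.3 to 28.8). Of 11 ductal markers 6 were higher (528 to 737 in NZO islets, against 373 to 726 in B6-ob/ob islets), of 9 immune markers 6 (13.7 to 27.3, against 6.14 to 7.03), and of 11 endothelial markers 3. Of 8 neuronal and glial markers 1 was higher and 1 lower. Cftr, Muc1, Pdgfra, Il7r and Gfap were not above background on any B6-ob/ob array, Cldn1 on any NZO array, and Itgam, Cd8a, Cd4, Cd79a and Dbh on any array. The part of these cells in the results below was not tested. In whole islets, fewer cells of a type and less RNA per cell cannot be told apart.

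Pcsk1, which encodes the convertase that makes the first cuts in proinsulin, was read by 2 probes. Probe A_52_P164524, toward the 5′ end, had levels of 2.05, 1.72 and 1.70 on the NZO arrays and 2.76, 2.50 and 2.20 on the B6-ob/ob arrays. All NZO values lay below all B6-ob/ob values. Its level was 1.82 ± 0.19 in NZO and 2.49 ± 0.28 in B6-ob/ob islets (SD, n = 3 each), a difference of -0.67 (SE 0.19, limma adjusted p = 0.0488). Within slide 2, which holds 1 array of each strain, the difference was -0.72, and within slide 3 it was -0.63. With slide as a fixed block the value stayed at -0.67 but its adjusted p was 0.0680. Probe A_52_P500979, toward the 3′ end, had levels of 6.10, 6.10 and 5.80 on the NZO arrays and 6.74, 6.47 and 6.06 on the B6-ob/ob arrays. The highest NZO arrays passed the lowest B6-ob/ob array, and the difference of -0.43 did not pass the test (95% interval -0.92 to 0.06, limma adjusted p = 0.192).

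Pcsk2 encodes PC2, which finishes the cutting of proinsulin in beta cells and releases glucagon in alpha cells. Probe A_51_P134045 had levels of 4.73, 4.76 and 4.60 on the NZO arrays and 5.02, 5.25 and 5.52 on the B6-ob/ob arrays. The strains did not overlap at this probe, and NZO lay below. The difference was -0.56 (SE 0.16, limma adjusted p = 0.0489), with -0.28 within slide 2 and -0.62 within slide 3, and a fit with slide as a fixed block gave -0.48 and an adjusted p of 0.156. The other probe, A_51_P229613, lies 5′ of it and had levels of 9.22, 9.25 and 8.90 on the NZO arrays and 9.35, 9.03 and 8.92 on the B6-ob/ob arrays. Here the strains overlapped throughout. The difference was 0.02 (95% interval -0.38 to 0.43, limma adjusted p = 0.939), so the call at Pcsk2 rests on 1 of its 2 probes.

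Scg5, the gene of the PC2 chaperone 7B2, had levels of 7.69, 7.66 and 7.26 on the NZO arrays and 6.38, 6.29 and 5.94 on the B6-ob/ob arrays. The lowest NZO array lay well above the highest B6-ob/ob array. The level was 7.54 ± 0.24 in NZO and 6.20 ± 0.23 in B6-ob/ob islets (SD, n = 3 each), a difference of 1.34 (SE 0.18, 95% interval 0.90 to 1.78, limma adjusted p = 0.00418). Of all kept probes, 5.6% were called higher with a difference at least as large. Within slide 2 the difference was 1.31 and within slide 3 it was 1.55. With the arrays centred on the endocrine markers instead of the 75th percentile it was 1.47. Under that centring the called probes of Pcsk1, Pcsk2 and Scg2 gave -0.53, -0.43 and -0.34 and did not pass the test (limma adjusted p = 0.269, 0.104 and 0.308). Scg5 has 1 probe on the array, so no other stretch of its transcript was read.

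Pcsk1n encodes proSAAS, the inhibitor of PC1/3, and was read by 3 probes. Probe A_51_P226922 (chrX:7499610-7500062, across an intron) had levels of 6.59, 6.63 and 6.68 on the NZO arrays and 6.46, 6.53 and 6.56 on the B6-ob/ob arrays. The NZO arrays lay just above all B6-ob/ob arrays, by a margin smaller than the error of the test: the difference was 0.12 (SE 0.10, limma adjusted p = 0.489). Probe A_52_P496202 (chrX:7500267-7500326) had levels of 7.57, 7.76 and 7.75 on the NZO arrays and 7.57, 7.58 and 7.36 on the B6-ob/ob arrays, a difference of 0.19 (limma adjusted p = 0.337). The dim probe A_52_P459657 (chrX:7500858-7500917) had levels of -3.04, -2.81 and -2.57 on the NZO arrays and -2.53, -2.83 and -2.81 on the B6-ob/ob arrays, a difference of -0.08 (limma adjusted p = 0.762). No probe of Pcsk1n passed the test.

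Each convertase was also set against its binding protein within an array, where scaling between arrays cancels. The level of Scg5 minus that of Pcsk2, at the brightest probe of each, was -1.53, -1.59 and -1.64 on the NZO arrays and -2.97, -2.74 and -2.98 on the B6-ob/ob arrays. The strains lay apart, and the NZO mean was higher by 1.31 (2.48-fold, SE 0.08). Pcsk2 itself differed by 0.02 at this probe and Scg5 by 1.34, so the pair mostly restates the difference of Scg5. An exact two-sided permutation test gave p = 0.1, the smallest that 3 arrays against 3 allow, and 0.1 after Benjamini-Hochberg adjustment over the 2 pairs. With the dimmer Pcsk2 probe the difference was 1.90. For Pcsk1n minus Pcsk1 the values were 1.47, 1.66 and 1.95 on the NZO arrays and 0.83, 1.11 and 1.30 on the B6-ob/ob arrays. They did not overlap either, with a difference of 0.62 (1.53-fold, SE 0.20, exact permutation p = 0.1, adjusted 0.1). With the dimmer Pcsk1 probe the difference was 0.86. The plot of within-array differences shows both pairs beside the probe pairs of Pam and Pcsk2.

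**Figure D1:**
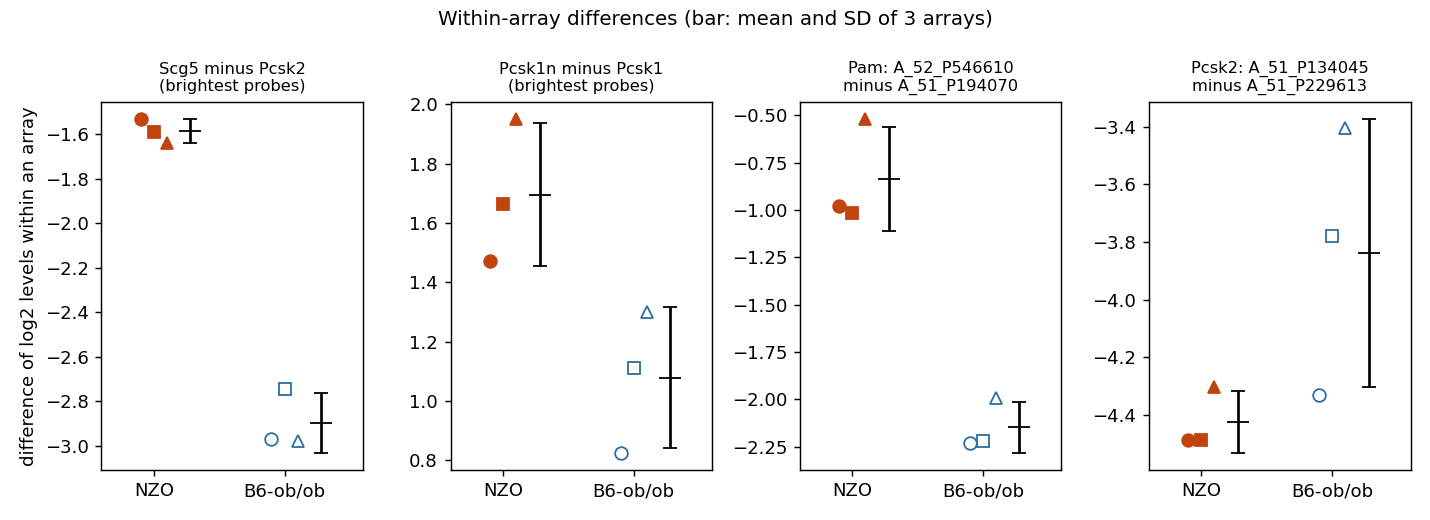
Difference of log2 levels within an array (y axis, log2) for Scg5 minus Pcsk2, Pcsk1n minus Pcsk1, and a probe pair each of Pam and Pcsk2, with 1 point per array, NZO left of B6-ob/ob, and the mean with its SD as a bar; circles, squares and triangles are replicates 10, 11 and 12 (NZO) or 4, 5 and 6 (B6-ob/ob). The NZO arrays lie above all B6-ob/ob arrays in the first 3 panels, by 1.31, 0.62 and 1.31 on average, and the strains overlap in the Pcsk2 panel.

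Cpe, the carboxypeptidase that trims the cut ends, was read by 2 probes. Probe A_52_P78417 (chr8:67072015-67073749, minus strand, across an intron) had levels of 8.62, 8.44 and 8.14 on the NZO arrays and 8.17, 8.03 and 8.04 on the B6-ob/ob arrays. Only NZO 12 lay below the highest B6-ob/ob array, and the difference was 0.32 (95% interval -0.05 to 0.69, limma adjusted p = 0.195). Probe A_51_P246001 (chr8:67071820-67071879) had levels of 8.31, 8.26 and 7.94 on the NZO arrays and 8.05, 7.87 and 7.82 on the B6-ob/ob arrays. The order of the arrays was alike, and the difference of 0.26 did not pass the test (95% interval -0.10 to 0.61, limma adjusted p = 0.269).

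Pam, the amidating enzyme, was read by 3 probes that did not move together. Probe A_51_P194070, which lies 5′ of the others, had levels of 2.09, 2.17 and 1.07 on the NZO arrays and 3.28, 2.89 and 1.99 on the B6-ob/ob arrays. Its difference was -0.94 with a wide error (SE 0.42, 95% interval -1.97 to 0.08, limma adjusted p = 0.171), and the lowest B6-ob/ob array lay among the NZO arrays. Probe A_52_P546610 had levels of 1.11, 1.15 and 0.55 on the NZO arrays and 1.05, 0.67 and 0.00 on the B6-ob/ob arrays, a difference of 0.37 (limma adjusted p = 0.444). Probe A_52_P494289 (chr1:99715887-99715946) had levels of -3.57, -3.24 and -3.64 on the NZO arrays and -3.34, -3.70 and -4.36 on the B6-ob/ob arrays, a difference of 0.32 (limma adjusted p = 0.467). Each of the 3 probes was lowest on NZO 12 among the NZO arrays and on B6-ob/ob 6 among the B6-ob/ob arrays.

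The probes of Pam were then compared with each other within each array, a comparison chosen after seeing the data. Probe A_52_P546610 minus probe A_51_P194070 was -0.98, -1.01 and -0.52 on the NZO arrays and -2.23, -2.22 and -1.99 on the B6-ob/ob arrays. The strains did not overlap, and this difference was higher in NZO islets by 1.31 (SE 0.17, limma adjusted p = 0.00516 over 11155 probe pairs that share a gene name). The pair of A_52_P494289 and A_51_P194070 gave 1.26 (SE 0.25, limma adjusted p = 0.0242), and the pair of A_52_P494289 and A_52_P546610 gave -0.05 (limma adjusted p = 0.886). Of 9 such pairs among 5 member genes, these 2 of Pam were called, beside 13.9% of all 11155 pairs, and 3 did not overlap between strains, beside 32.8%. The pair of Pcsk2 probes differed by -0.59 (limma adjusted p = 0.184) and that of Pcsk1 by -0.24 (limma adjusted p = 0.300). A within-array difference shows that probes changed unequally between strains, not which of them changed. A sequence difference between the strains under a probe was not tested.

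Scg2 (secretogranin II) had levels of 7.48, 7.17 and 7.28 on the NZO arrays and 7.73, 7.89 and 7.72 on the B6-ob/ob arrays, with no overlap and NZO below. The level was 7.31 ± 0.16 in NZO and 7.78 ± 0.09 in B6-ob/ob islets (SD, n = 3 each), a difference of -0.47 (SE 0.13, limma adjusted p = 0.0491). It was -0.24 within slide 2 and -0.64 within slide 3, and a fit with slide as a fixed block gave -0.47 and an adjusted p of 0.153. Scg3 (secretogranin III, probe A_51_P161248, chr9:75491320-75491379, minus strand), which tethers Chga to the granule membrane, had levels of 7.43, 7.46 and 7.14 on the NZO arrays and 8.14, 7.70 and 7.15 on the B6-ob/ob arrays. B6-ob/ob 6 lay among the NZO arrays and the spread between the B6-ob/ob arrays was wide, so that the difference of -0.32 did not pass the test (SE 0.26, limma adjusted p = 0.436).

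Chga (chromogranin A, probe A_51_P358316, chr12:103803083-103803142, plus strand) had levels of 9.31, 9.33 and 9.16 on the NZO arrays and 9.43, 9.17 and 9.13 on the B6-ob/ob arrays. The strains overlapped throughout, and the difference of 0.02 had a 95% interval of -0.30 to 0.34 (limma adjusted p = 0.930). Chgb (chromogranin B) was read by probe A_51_P191669 (chr2:132620703-132620762, plus strand), printed in 10 spots. Its levels were 9.08, 9.28 and 8.89 on the NZO arrays and 9.10, 8.70 and 8.63 on the B6-ob/ob arrays. B6-ob/ob 4 lay among the NZO arrays, and the difference of 0.27 did not pass the test (95% interval -0.15 to 0.70, limma adjusted p = 0.326). A second probe named Chgb (A_52_P652560, chr2:132609590-132609649) was not above background on any array and was not tested.

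**Figure D2:**
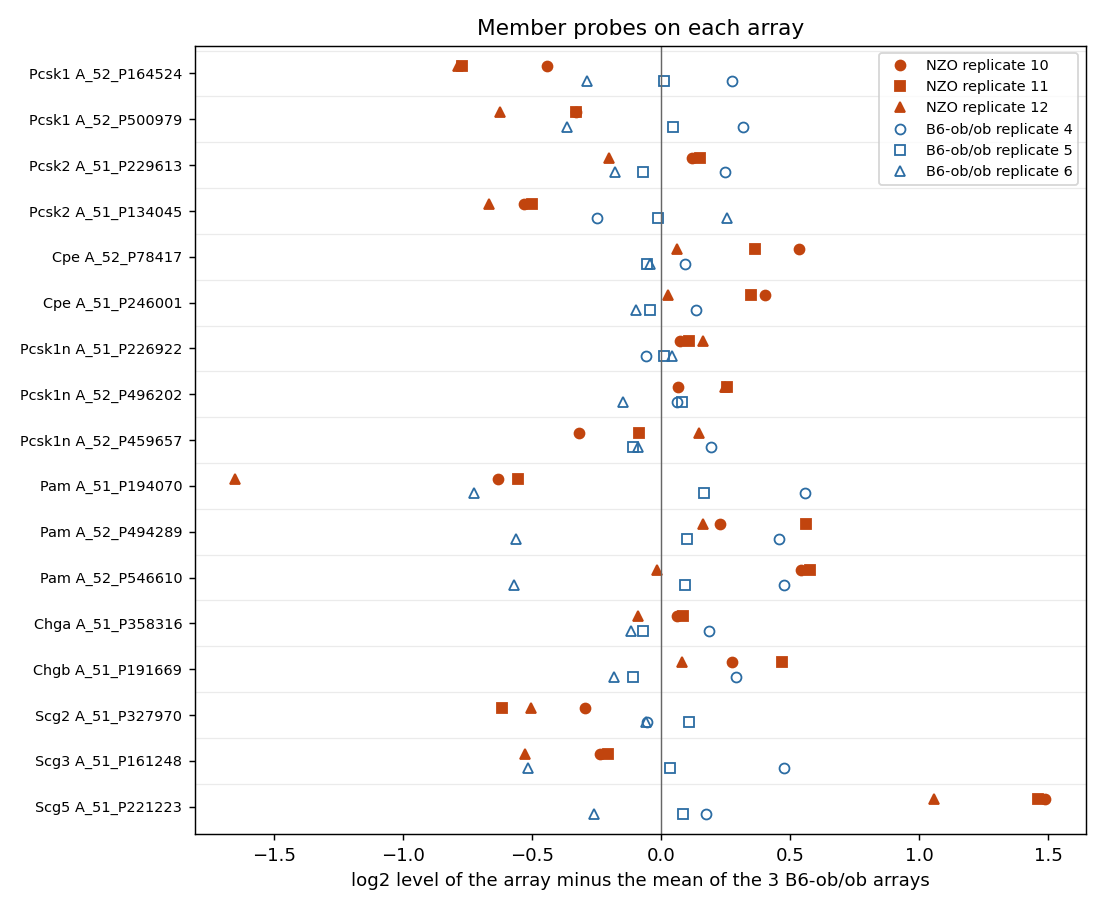
Levels of the 17 tested member probes on each array (x axis, log2 level minus the mean of the 3 B6-ob/ob arrays; filled red marks for NZO, open blue marks for B6-ob/ob). Scg5 stands apart at the right with all 3 NZO arrays, while Scg2, Pcsk1 probe A_52_P164524 and Pcsk2 probe A_51_P134045 have all 3 NZO arrays at the left of the B6-ob/ob arrays.

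Across the members, the arrays of the strains did not overlap at 5 of 17 probes (29.4%), beside 41% of all kept probes. NZO lay above at 2 of them, Scg5 and 1 probe of Pcsk1n (11.8%, beside 18.6% of all kept probes), and below at 3 (17.6%, beside 22.4%). Arrays within a strain also shared a direction over many members. NZO 12 was the lowest NZO array at 13 of 17 member probes, beside 40.8% of all kept probes. B6-ob/ob 4 was the highest B6-ob/ob array at 13 of 17, beside 41.8%, and B6-ob/ob 6 was the lowest at 13 of 17, beside 40.2%. The plot of differences with their intervals shows 13 of 17 member probes within 0.5 of 0 on the log2 scale. These include Scg2, called lower at -0.47, and the share of all kept probes within 0.5 was not computed.

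**Figure D3:**
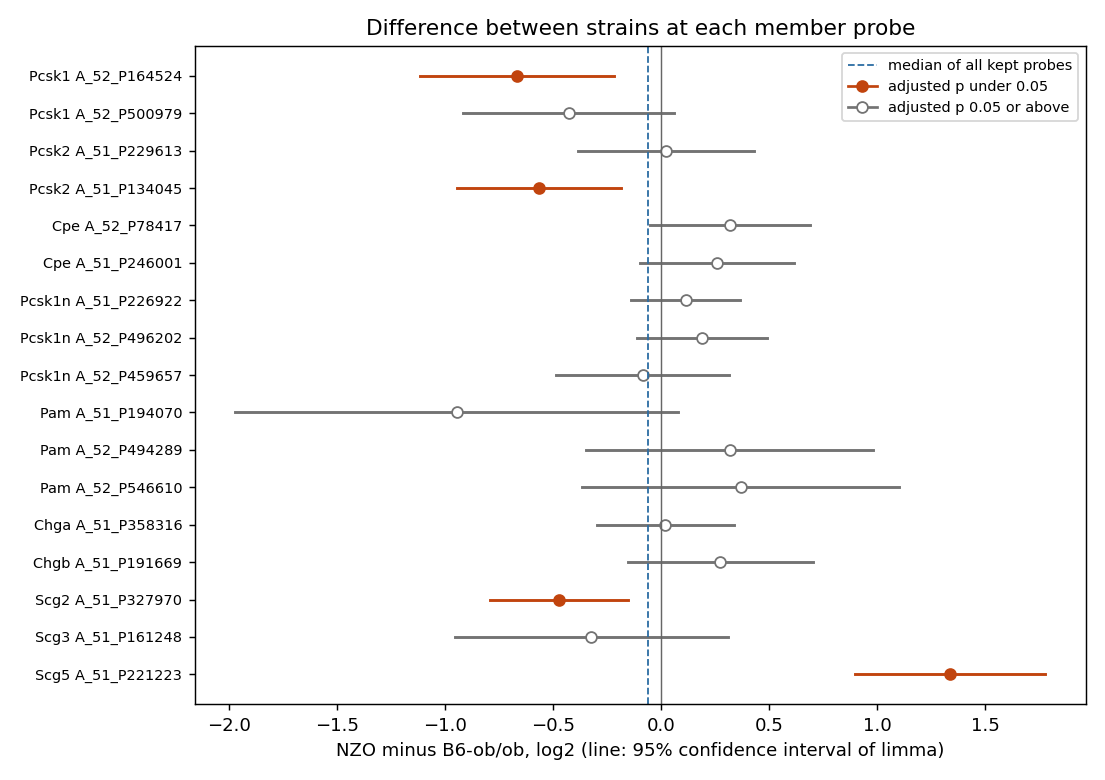
Difference between strains at each of the 17 member probes (x axis, NZO minus B6-ob/ob, log2), with the 95% confidence interval of limma as a line and filled marks where the adjusted p is under 0.05. The dashed line at -0.06 is the median of all kept probes; Scg5 at 1.34 is the only filled mark to the right of 0.

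The calls were then repeated under other settings of the processing. The deposited value table, whose columns follow arrays of the other strain, is left out of these counts. Scg5 was called in 18 of 18 alternative fits, with values between 1.16 and 1.48 and an adjusted p of at most 0.0219. Pcsk1 probe A_52_P164524 was called in 8 of 16, Pcsk2 probe A_51_P134045 in 6 of 16 and Scg2 in 5 of 18, each with the same sign throughout. Scg5 and Scg2 have 1 probe each, so their fits by the brightest probe and by the mean of probes repeat the main values. The fits are thus not independent of each other. Over all settings, 10.8% to 42.2% of the probes tested were called, the highest share with array weights. When any 1 array was left out, the number of member probes called lower was 0 or 1, against 3 with all arrays. The share of all kept probes called was then 11.4% to 20.7%, against 21.8% with all arrays. Scg5 was called without any 1 of the 6 arrays. The Pam probe pair was called in 10 of 10 alternatives, between 1.15 and 1.40.

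**Figure D4:**
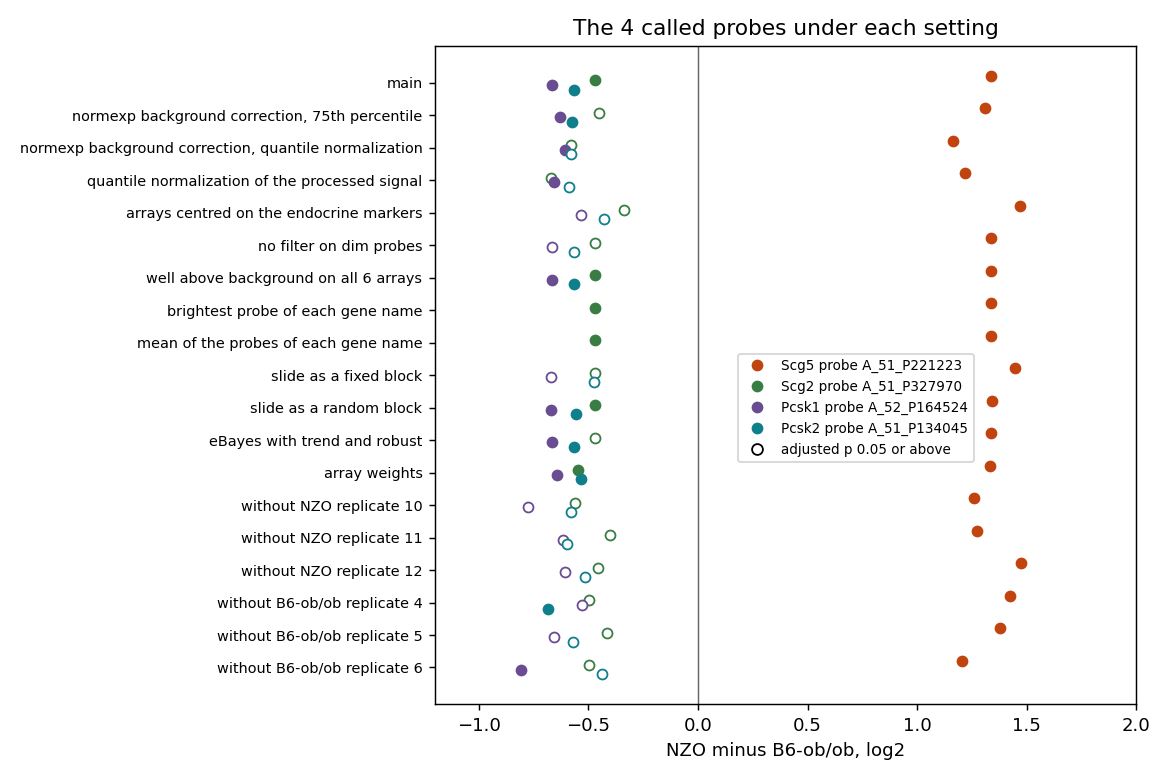
Difference between strains (x axis, NZO minus B6-ob/ob, log2) of the 4 called member probes under each setting, with filled marks where the adjusted p is under 0.05 and open marks where it is not. Scg5 stays between 1.16 and 1.48 with filled marks in every line shown, and the marks of Scg2, Pcsk1 and Pcsk2 are open in many lines.

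The other genes of the pathway were described in 6 lists, of which 87 genes were measured at their brightest kept probe. With limma, 16 of them were higher and 9 lower in NZO islets (28.7% called, beside 21.8% of all kept probes), and their median difference was -0.05. These counts were 9 higher and 5 lower without NZO 10 or without NZO 11, and 8 higher and 4 lower without B6-ob/ob 5. The share of all kept probes called in these fits was 14.1%, 13% and 11.4%. The list of other processing enzymes held most of the higher calls: 10 of 17 were higher and 0 lower, with a median of 0.71. It includes relatives of the carboxypeptidases, with Cpxm1, Cpxm2 and Aebp1 among the 10. Enzyme activity was not measured, so the count is of listed genes and not of active enzymes. Cpxm2, a member of the carboxypeptidase family, differed by 3.67 and the glutaminyl cyclase Qpct by 2.57. Cpxm1, a relative of Cpxm2, differed by 3.22 and was above background on 2 of the 3 B6-ob/ob arrays. The secreted carboxypeptidase Cpz, counted among the 10, was not above background on any B6-ob/ob array and passed the filter through its NZO arrays alone. It was at least 5.55-fold higher in NZO islets at its brightest probe and at least 2.55-fold at its other kept probe. Furin, the convertase of the constitutive secretory route, differed by 0.26 (limma adjusted p = 0.227). The count of 10 was 6 without NZO 10, without NZO 11 or without B6-ob/ob 5. It was 6 of 13 where probes had to be above background on all 6 arrays, a fit that called 20.8% of its probes. That filter leaves out Cpz, Pcsk5, Cpxm1 and Aebp1, all counted among the 10. Pcsk5 and Aebp1, like Cpxm1, were above background on 2 of the 3 B6-ob/ob arrays. Markers of stellate cells and fibroblasts moved the same way (12 of 13 higher, summed level 71.6 to 79.9 in NZO islets, against 18.3 to 28.8 in B6-ob/ob islets), and their part in this count was not tested.

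Among the peptide hormone precursors, the substrates of these enzymes, 2 of 16 were higher and 3 lower, with a median of 0.06. Cck (cholecystokinin) was higher by 6.88, with levels of 5.67, 5.69 and 2.44 on the NZO arrays and -1.07, -2.41 and -3.36 on the B6-ob/ob arrays, and Penk (proenkephalin) was higher by 2.26. Vip, above background on 2 of 3 NZO arrays, fell by 3.57 and Ghrl (ghrelin) by 3.01, and Npy, named after its value was seen, fell by 1.73. The main islet hormones did not pass the test: Ins1 differed by 0.07 (limma adjusted p = 0.780), Ins2 by 0.06 (adjusted p = 0.853), Gcg by 0.09 (adjusted p = 0.720) and Sst by -0.54 (adjusted p = 0.0892).

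Of 18 other granule cargo and membrane proteins 1 was higher and 2 were lower, with a median of -0.22. Ica1, a protein of the Golgi and immature granules, was higher by 0.63 at its brightest probe, while its other probes gave -0.15 and -0.38. Cadps, which primes dense-core granules for release, fell by 1.00, and Snap25, a fusion protein, by 0.58. Ptprn, a granule membrane protein, differed by -0.21 (limma adjusted p = 0.634), and Vgf and Iapp were not analysed here. Of 19 genes listed with the proton pump that acidifies granules, its accessory proteins and Clcn3 included, 0 were higher and 2 lower. These were Atp6v0c at -0.47 and Atp6v1h at -0.44, and the median of the list was -0.17. Of 5 genes that supply Pam with copper and ascorbate 2 were higher, the ascorbate transporter Slc23a2 by 0.71 and the copper pump Atp7a by 0.56. Of 12 transcription factors of the neuroendocrine programme 1 was higher and 2 were lower, with a median of -0.19. Rest, a repressor that silences neuroendocrine genes including granins in other cells, was higher by 1.55 (limma adjusted p = 0.00451; 0.90 at its other probe), with levels of -1.74, -1.68 and -1.68 on the NZO arrays and -2.78, -3.40 and -3.57 on the B6-ob/ob arrays. Isl1 fell by 1.05 and Insm1 by 0.54.

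**Figure D5:**
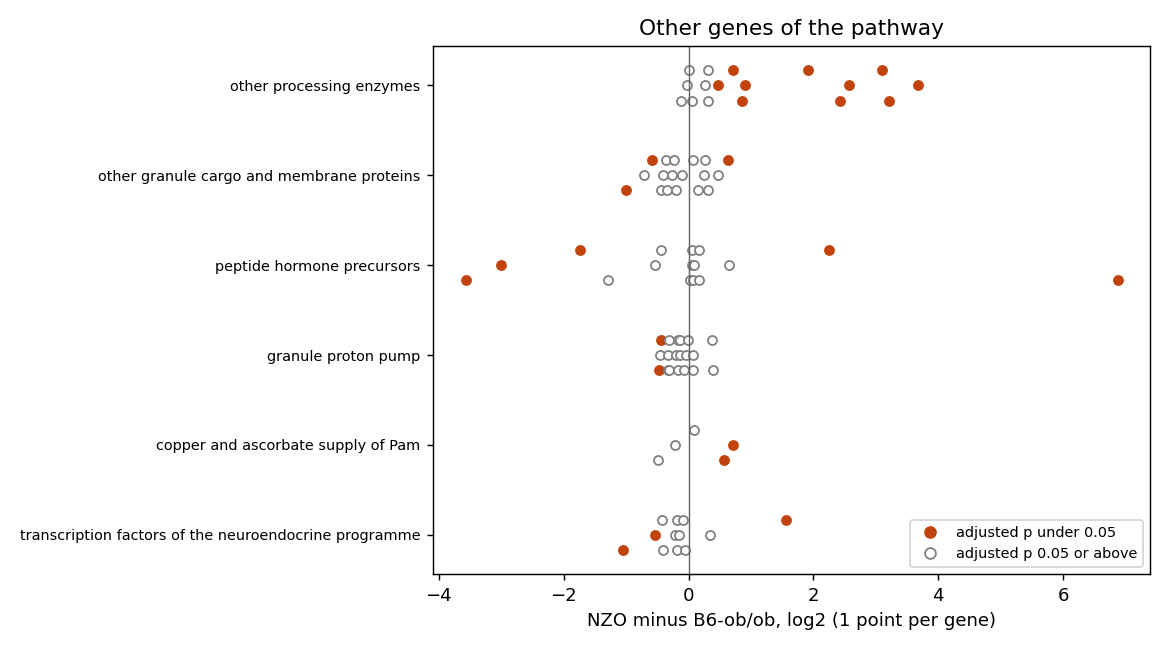
Difference between strains (x axis, NZO minus B6-ob/ob, log2) of each measured gene of the 6 pathway lists, with 1 point per gene, filled where the adjusted p is under 0.05; the vertical offset within a list only keeps points apart. Filled points of the other processing enzymes all lie to the right of 0 (10 of 17 genes), those of the proton pump to the left (2 of 19), Cck stands at 6.88, and Cpz, not above background in B6-ob/ob islets, is drawn at its measured 3.10.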

How the data were processed

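Islet RNA of 3 NZO and 3 B6-ob/ob samples was measured on Agilent mouse arrays, 1 array per sample. The deposited scanner files hold processed spot intensity on a linear scale, detrended across the array by the scanner software. The file headers give its version as 10.5.1.1, and the submitters' processing notes list Agilent Feature Extraction 9.1. Probe positions are on mm9 per the file headers. The authors' value table of processed intensity at 33150 probes, of which 33068 matched, is linear and not centred, with column medians of 21.3, 21.4 and 21.4 for NZO 10, 11 and 12 and 22.1, 21.4 and 22.4 for B6-ob/ob 4, 5 and 6. Its column labels run against those of the scanner files, and why is not known. Over probes centred on their mean, each column correlated best with an array of the other strain (0.944 to 0.971). With the array of its own label each column correlated negatively (-0.633 to -0.402), so the value table served only as an alternative.

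Control spots and outlier spots (61 to 76 per array) were left out, and saturation was not seen at any probe. Log2 intensities of a probe's spots were averaged, and the 75th percentile of the array's 41174 probes was subtracted. Probes were kept (24627) where 3 or more of the 6 arrays read them well above background. The linear model of limma 3.58.1 (lmFit, then eBayes, run in R 4.3.3) tested NZO against B6-ob/ob at every kept probe, two-sided, and p-values were adjusted by the Benjamini-Hochberg method over all of them. The convertase pairs were tested by exact permutation with Python 3.11.15 and scipy 1.17.1. The functions were tested on simulated data. Arrays fell on 3 slides, of which slide 1 holds NZO 12 alone, and were scanned on the same day. Where a gene of a list had several probes, the brightest kept probe stood for it. Lower bounds of fold set the dim strain at the lowest signal among probes above background. A called probe is one with an adjusted p under 0.05.

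Every probe of every member is reported. Of each pathway list, up to 4 called genes are named by size, with Furin, Vgf, Iapp, Ptprn, Ins1, Ins2, Gcg, Sst and Rest whatever their values. The members and lists were chosen with earlier results of these data known. The alternatives were other background corrections and normalizations, centring on endocrine markers, the value table, other filters and gene summaries, slide as a block, other variance models, and each array left out. Comparisons of probes within a gene were added after seeing the data. Promoter sequences are from RefSeq. A single marker gene is not reported here.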

Additional observations from a re-analysis of the deposited data

How the results depend on the processing

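No paired analysis was possible because the replicate numbers of the strains (10, 11 and 12 against 4, 5 and 6) share none. With 3 arrays a strain, small differences pass or miss the threshold by setting, and signal over background limits the dim probes of Pam and Pcsk1n. Centring on the endocrine markers moved the median of all probes to 0.07, against -0.06. The count of member probes called lower, 3 of 17, became 0 with that centring, with no filter on dim probes and with slide as a fixed block, 1 of 10 with the brightest probe or the mean of the probes of each gene name, 1 of 13 by the value table (Scg5 with its sign turned), and 5 under array weights, which also gave 4 called higher. Leaving out each array gave 0 to 1 called lower and 1 called higher. For the pathway lists, 16 higher and 9 lower became 10 and 5 with slide as a fixed block. The lower count was 5 with endocrine centring and 20 with array weights, the value table gave 4 higher and 12 lower of 72 genes, and leaving out each array gave 8 to 14 higher and 4 to 9 lower. Scg5 minus Pcsk2 was 1.42 and 1.45 under the quantile normalizations with and without normexp and 1.61 with the mean of the probes, and leaving out each array gave 1.27 to 1.39. Pcsk1n minus Pcsk1 was 0.49 to 0.73 with each array left out.

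Signs turned under the value table, by its own labels, because its columns follow the other strain: -1.21 for Scg5, 0.65 for Scg2, 0.45 for Scg3, 0.50 and 0.21 for the called probes of Pcsk1 and Pcsk2, 0.93, -0.24 and -0.39 for Pam probes A_51_P194070, A_52_P494289 and A_52_P546610, -1.32 for the Pam pair, -0.028 for Cpe probe A_51_P246001, -0.033 and 0.13 for Pcsk1n probes A_51_P226922 and A_52_P459657 and -0.15 for Chgb. Values near 0 also turned. Pcsk2 probe A_51_P229613 gave -0.0048 with normexp, -0.26 with normexp and quantile, -0.23 with quantile and -0.27 as the mean of its probes, and -0.066 to 0.15 with an array left out. Chga gave -0.012, -0.17 and -0.044 under the same 3 normalizations and -0.037 to 0.11 with an array left out. Quantile normalization gave -0.026 and -7.7e-05 for the Cpe probes, -0.0017 for Pcsk1n probe A_51_P226922 and -0.043 for Chgb, and with normexp it gave -0.042 for Pcsk1n probe A_52_P496202 and -0.032 for Chgb. Pcsk1n probe A_52_P459657 gave 0.013 with normexp, 0.050 with endocrine centring and -0.20 to 0.031 with an array left out. Apart from the value table, the cause of these changes was not tested.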

Other observations

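Genes next to Scg5 on chromosome 2 were looked at after its value was seen. Fmn1, the gene of the actin nucleator formin 1, was read at chr2:113549739-113549798 on mm9, 66872 bases from the Scg5 probe. Its levels were -1.82, -1.55 and -2.15 on the NZO arrays and -2.98, -3.00 and -3.14 on the B6-ob/ob arrays, without overlap. It was higher in NZO islets by 1.20 (SE 0.17, limma adjusted p = 0.00521), and its other 3 probes were not kept. Grem1, the gene of the BMP antagonist gremlin 1, lies between them at 27384 bases from the Scg5 probe and was not above background on any array. Arhgap11a, on the far side of Scg5 at 55038 bases, differed by -1.16 with a wide error (SE 0.94, limma adjusted p = 0.439).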
